A study of Mus musculus with 150 samples.

Results

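Srrm2, Crebbp, Chd4, Zbtb7a and Map1b, 5 genes of mouse lung, were followed array by array through a long-term styrene inhalation study. They were chosen because their levels rose with styrene at 52 weeks in wild-type C57BL/6 or CD-1 lungs, so the values of those comparisons are given as a description and carry no test. Their members were all probe sets that the platform annotation assigns to 1 of these 5 genes, which gave 11 of 45037 probe sets, with 3 each for Srrm2, Zbtb7a and Map1b and 1 each for Crebbp and Chd4. A probe set is a group of short oligonucleotides on the array that reads 1 stretch of a transcript. All 11 passed the filter on dim values, among 39185 probe sets that did.

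RNA of whole lung was hybridised to 150 Affymetrix arrays, 1 per adult male mouse, so replicates were separate animals. Mice inhaled 120 ppm styrene (79 mice) or air, 0 ppm (71 mice), 5 days a week and 6 h on each, and lungs were taken at 26, 52, 78 or 104 weeks. The 31 groups of 2 to 10 mice came from 4 kinds of mice. TG mice (38 arrays) were C57Bl/6 mice labelled CYP2F2(-/-) with a 2F1,SA13,2B6 transgene, of which the labels name no promoter. KO mice (39 arrays) were C57Bl/6 CYP2F2(-/-) mice, WT mice (31 arrays) were wild-type C57Bl/6 mice, and CD-1 mice (42 arrays) were of an outbred stock and also carried wild-type CYP2F2. KO and TG mice shared the loss of CYP2F2 and are called Cyp2f2-null below. WT air mice of 26 weeks were not analysed here, and the WT comparisons start at 52 weeks. The protocol text in the labels names shorter exposures than the week given for each sample, and the sample's own week was used.

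Srrm2 encodes a very large serine and arginine rich protein that holds nuclear speckles together, the compartments where splicing factors gather. Crebbp encodes CBP, a coactivator that acetylates histones at enhancers and promoters and binds CREB and many other transcription factors. Chd4 encodes the ATP-driven remodelling subunit of the NuRD complex, which moves nucleosomes and works with histone deacetylases. Zbtb7a encodes a zinc finger transcription factor of the POK family, known for its part in blood cell fate and in cell growth. Map1b is no nuclear or chromatin gene: it encodes a microtubule-associated protein best known from growing axons. CYP2F2, the P450 of lung club cells, oxidises styrene, and its loss is known to protect mouse lung from styrene toxicity.

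Srrm2 and Crebbp moved most closely together of the 5 genes in the arrays described below, and for this reason the sequence around their start sites is shown. Each stretch runs 5′ to 3′ from 250 bases before to 50 bases after a transcription start and is taken from RefSeq for build GRCm38.p6, where all 5 genes were matched by symbol. For Srrm2 it is chr17:23802937-23803236 on the plus strand, and its capitals mark TGACG, the CREB half-site. For Crebbp it is chr16:4213355-4213654 on the minus strand, and its capitals mark GGGCGG, the GC box, present as a pair that overlaps by 2 letters.
Srrm2: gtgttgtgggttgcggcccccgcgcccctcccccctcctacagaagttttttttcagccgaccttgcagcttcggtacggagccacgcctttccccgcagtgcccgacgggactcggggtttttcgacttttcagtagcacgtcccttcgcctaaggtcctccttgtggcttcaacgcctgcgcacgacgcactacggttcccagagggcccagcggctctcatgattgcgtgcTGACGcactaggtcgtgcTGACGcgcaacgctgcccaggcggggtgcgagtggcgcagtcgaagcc
Crebbp: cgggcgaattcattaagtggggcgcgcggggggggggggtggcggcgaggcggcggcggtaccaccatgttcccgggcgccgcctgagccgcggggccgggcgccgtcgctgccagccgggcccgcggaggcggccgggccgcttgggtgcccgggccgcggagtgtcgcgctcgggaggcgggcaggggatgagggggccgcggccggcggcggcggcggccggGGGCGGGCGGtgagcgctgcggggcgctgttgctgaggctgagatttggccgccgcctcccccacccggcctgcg
Searched on both strands, TGACG was found 2 times in the Srrm2 stretch and not in that of Crebbp, while GGGCGG was found 2 times in the Crebbp stretch and not in that of Srrm2. Among all 32851 promoter stretches of this length, 20.8% held TGACG and 35.7% held GGGCGG. Both stretches were rich in G and C, at 64% for Srrm2 and 82% for Crebbp against a median of 52.7% over all stretches, and held 30 and 49 CpG against a median of 7. The Zbtb7a stretch (chr10:81136021-81136320) held 6 GGGCGG at 77.7% G and C, and that of Map1b (chr13:99516553-99516852) held 2 at 65.7%, with 1 TATAAA and 1 CCGGAAG. Each of 2 listed start sites of Chd4 on chromosome 6 held 3 GGGCGG and 1 TGACG. No motif searched was common to all 5 genes, and a match of letters shows no binding.

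All levels below are log2 intensities as deposited, and levels are compared between arrays for the same probe set only. Lung identity was clear, with Sftpc of alveolar type 2 cells at 13.6 to 13.9 and Ager of type 1 cells at 12.6 to 13.7 on all arrays. Cyp2f2, the targeted gene, lay at 11.7 to 12.6 in KO and 11.8 to 12.4 in TG arrays, against 12.9 to 13.5 in WT and 12.1 to 13.5 in CD-1 arrays. Whether its probes lie in the deleted part is not known here, and probes outside it would check nothing. Array medians ran from 3.95 to 4.26. No label names a plate, so plates were inferred from the wells in the array names. By these, 88 arrays lay on plate 1 and 14 on plate 2. The arrays of 104 weeks lay on plates 3 (air) and 4 (styrene), except 4 styrene arrays on either.

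The brightest probe set of each gene is 1438688_PM_at for Srrm2, 1436983_PM_at for Crebbp, 1438476_PM_a_at for Chd4, 1450093_PM_s_at for Zbtb7a and 1450397_PM_at for Map1b. Over all arrays they averaged 9.83, 7.42, 6.01, 5.84 and 5.07. A gene's name alone stands for this probe set below. The other probe sets of Srrm2, 1427902_PM_at and 1437638_PM_at, averaged 7.46 and 6.77. Those of Zbtb7a, 1452932_PM_at and 1437255_PM_at, averaged 5.65 and 3.74. Those of Map1b, 1421851_PM_at and 1421850_PM_at, averaged 3.24 and 3.01, at the filter level of 2.99 to 3.19, which 1421850_PM_at exceeded on 54 of 150 arrays.

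In WT lungs at 52 weeks, the comparison that chose the genes, Srrm2 read 10.15, 9.67, 10.26, 10.01 and 10.44 in the 5 styrene mice, against 9.24, 9.16, 9.56, 9.25 and 8.67 in the 5 air mice. The groups did not overlap. The means were 10.11 ± 0.29 with styrene and 9.18 ± 0.32 with air (SD, n = 5 each), a difference of 0.93 (SE 0.20) that 93 other probe sets, 0.237% of those tested, equalled or exceeded. Map1b, the microtubule gene, read 5.56, 5.25, 5.87, 5.55 and 6.03 with styrene, against 4.56, 4.51, 4.34, 4.44 and 4.13 with air. Every styrene array was again above every air array, and the difference of 1.26 (SE 0.29) was equalled or exceeded by 16 others. The histone acetyltransferase gene Crebbp read 7.81, 7.36, 7.85, 7.69 and 8.01 with styrene, against 6.99, 6.96, 7.38, 6.96 and 6.18 with air. Here 1 air array lay among the styrene arrays, and the difference was 0.85 (SE 0.22). Chd4 read 5.82, 5.83, 6.48, 6.24 and 6.51 with styrene, against 5.15, 5.92, 5.54, 4.91 and 5.10 with air, a difference of 0.85 (SE 0.20). Zbtb7a read 6.18, 5.59, 6.21, 6.12 and 6.55 with styrene, against 5.06, 4.95, 5.70, 5.16 and 5.25 with air, a difference of 0.90 (SE 0.23). In both genes 1 air array exceeded the lowest styrene array.

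In CD-1 lungs at 52 weeks, Srrm2 read 10.25, 10.34 and 9.92 in the 3 styrene mice, against 9.27, 8.57, 10.46 and 9.53 in the 4 air mice. The third air mouse was the highest of all 7 and the only 1 of them hybridised on plate 2, so the groups overlapped through it. Crebbp read 7.98, 8.04 and 7.55 with styrene, against 6.59, 6.12, 7.97 and 6.77 with air, and Zbtb7a read 6.03, 6.65 and 5.62 with styrene, against 4.99, 3.84, 6.05 and 4.90 with air. Both overlapped through the same air mouse. Chd4 read 6.25, 6.73 and 6.46 with styrene, against 5.56, 4.77, 5.90 and 5.25 with air, and Map1b read 5.13, 4.97 and 5.38 with styrene, against 4.47, 3.98, 4.83 and 3.97 with air. The groups did not overlap for these 2 genes. With a term for plate 2 in the fit, the differences were 0.80 (SE 0.24) for Srrm2, 1.09 (SE 0.27) for Crebbp, 1.23 (SE 0.25) for Chd4, 1.32 (SE 0.28) for Zbtb7a and 0.86 (SE 0.36) for Map1b. Of all probe sets tested, limma called 1.39% in WT and 0.13% in CD-1 mice at 52 weeks, and nothing is read from these shares about genes chosen here.

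The other probe sets of the same genes differed less in those comparisons. For Srrm2, 1427902_PM_at averaged 7.40 ± 0.22 with styrene and 7.50 ± 0.28 with air in WT mice (SD, n = 5 each), a difference of -0.10, and its difference in CD-1 mice was -0.21. The third Srrm2 probe set, 1437638_PM_at, was 0.81 higher with styrene in WT and 0.33 higher in CD-1 mice. For Zbtb7a, 1452932_PM_at differed by 0.14 in WT and 0.25 in CD-1 mice, and 1437255_PM_at by -0.03 and 0.16. For Map1b, 1421851_PM_at differed by 0.07 and 0.17, and 1421850_PM_at by -0.11 and -0.24. The 2 last lie near the filter level, which 1421851_PM_at exceeded on 103 and 1421850_PM_at on 54 of 150 arrays. Of these, 1421851_PM_at was called in other comparisons given below. The CD-1 groups did not overlap for 1437255_PM_at, higher with styrene, and for 1421850_PM_at, lower with styrene. The rule set no threshold: the smallest difference inside it was 0.80 (Srrm2 in CD-1 mice), and 56 other probe sets, 0.143% of those tested, were at least this much higher with styrene in both WT and CD-1 mice.

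**Figure D1:**
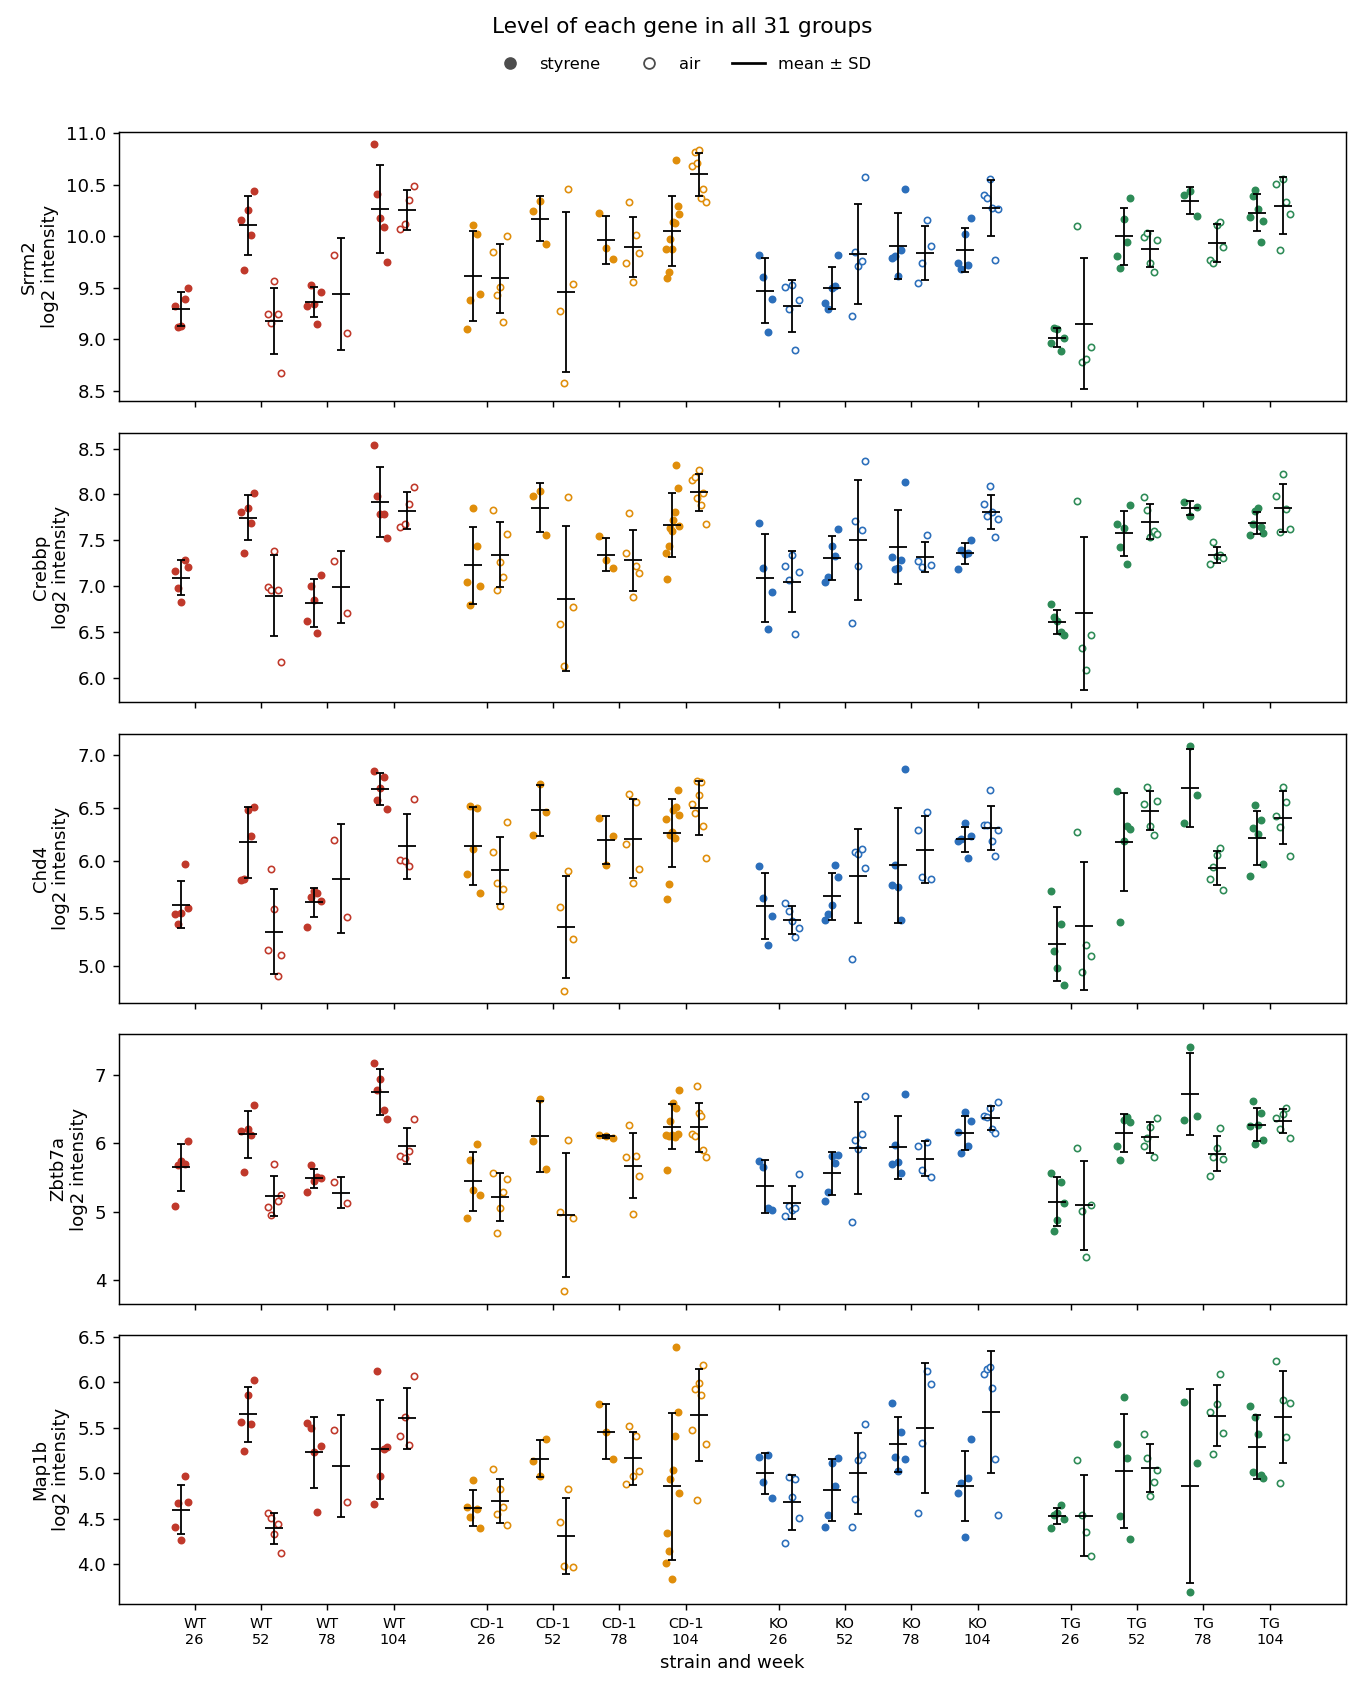
Level (log2 intensity) of the brightest probe set of each gene in all 31 groups, by strain and week. Filled points are styrene mice and stand left of the open points of air mice, bars show mean ± SD, and WT has no air group at 26 weeks; at 52 weeks WT styrene arrays averaged 10.11 for Srrm2, against 9.18 in WT air arrays, while KO arrays averaged 9.50 with styrene and 9.82 with air, and TG arrays 10.00 with styrene and 9.88 with air.

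Cyp2f2-null mice gave a test at 52 weeks in animals that the choice of genes had not used. Their styrene and air arrays of that week shared no row of wells, so row and exposure cannot be told apart in it. At that week Srrm2 read 9.36, 9.29, 9.50, 9.51 and 9.82 in KO styrene mice, against 9.23, 9.84, 9.71, 9.76 and 10.58 in KO air mice. In TG mice it read 9.81, 9.69, 10.17, 9.95 and 10.37 with styrene, against 10.00, 10.03, 9.74, 9.65 and 9.96 with air. Both pairs overlapped. Over KO and TG together Srrm2 averaged 9.75 ± 0.35 with styrene and 9.85 ± 0.34 with air (SD, n = 10 each), a difference of -0.10 (SE 0.14, 95% interval -0.38 to 0.17, limma adjusted p = 0.807).

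Crebbp read 7.05, 7.09, 7.43, 7.32 and 7.62 in KO styrene mice, against 6.59, 7.71, 7.22, 7.61 and 8.37 in KO air mice. It read 7.68, 7.43, 7.64, 7.24 and 7.89 in TG styrene mice, against 7.97, 7.84, 7.54, 7.60 and 7.57 in TG air mice. The air mice spread more widely than the styrene mice, at both ends, and the joint means were 7.44 ± 0.27 with styrene and 7.60 ± 0.47 with air (SD, n = 10 each), a difference of -0.16 (SE 0.15, 95% interval -0.46 to 0.14, limma adjusted p = 0.684). Chd4 averaged 5.92 ± 0.44 with styrene and 6.16 ± 0.46 with air, a difference of -0.24 (SE 0.14, 95% interval -0.52 to 0.036, adjusted p = 0.432). Zbtb7a averaged 5.85 ± 0.42 with styrene and 6.01 ± 0.48 with air, a difference of -0.15 (SE 0.16, 95% interval -0.47 to 0.17, adjusted p = 0.729). For Map1b the means were 4.92 ± 0.49 with styrene and 5.03 ± 0.35 with air, and the difference was -0.11 (SE 0.20, 95% interval -0.51 to 0.30, adjusted p = 0.879). By limma 0 of the 11 probe sets were called, 3 had an unadjusted p under 0.05, and 0% of all probe sets tested were called, with 5643 under that unadjusted level.

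Within KO mice alone at 52 weeks the 5 differences were -0.33, -0.20, -0.19, -0.37 and -0.18 for Srrm2, Crebbp, Chd4, Zbtb7a and Map1b. Within TG mice they were 0.12, -0.13, -0.29, 0.06 and -0.03 in the same order of genes. None of the 11 probe sets was called by limma in either, where 0.0102% (KO) and 0.0153% (TG) of all probe sets were. The step between WT and KO or TG mice was not tested, since the WT values chose the genes.

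Air controls of Cyp2f2-null mice were set against each other over time, since these animals inhaled no styrene. Between 26 and 52 weeks Srrm2, Crebbp, Chd4 and Zbtb7a were all higher at the later week. Srrm2 averaged 9.85 ± 0.34 in the 10 null air mice of 52 weeks and 9.25 ± 0.44 in the 9 of 26 weeks (SD), a difference of 0.61 (SE 0.14, limma adjusted p = 0.0131). Crebbp averaged 7.60 ± 0.47 at 52 weeks and 6.90 ± 0.59 at 26 weeks, a difference of 0.73 (SE 0.16, adjusted p = 0.0051). The chromatin remodeller Chd4 averaged 6.16 ± 0.46 at 52 weeks and 5.41 ± 0.39 at 26 weeks, a difference of 0.76 (SE 0.14, adjusted p = 0.00112). Zbtb7a averaged 6.01 ± 0.48 at 52 weeks and 5.11 ± 0.43 at 26 weeks, a difference of 0.90 (SE 0.17, adjusted p = 0.000709). Map1b averaged 5.03 ± 0.35 at 52 weeks and 4.61 ± 0.36 at 26 weeks, and its difference of 0.42 (SE 0.21, adjusted p = 0.397) did not pass the test. For each of the 5 genes 9 of 10 arrays of 52 weeks lay above the mean of 26 weeks. In all, limma called 4 of 11 probe sets, all higher at 52 weeks, against 0.863% of all probe sets (254 higher and 84 lower of 338). The Srrm2 probe sets 1427902_PM_at and 1437638_PM_at differed by -0.10 and 0.21 and were not called. These differences share their 52-week air arrays with the styrene comparison of null mice above.

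Averaging the 3 probe sets of Srrm2 left 0.24 (limma adjusted p = 0.368). Srrm2 and Crebbp also lost the call when 1 array was left out. Srrm2 then gave 0.55 without TG air replicate 2 of 26 weeks (adjusted p = 0.0687), 0.56 without TG air replicate 3 of 26 weeks (0.0697) and 0.52 without KO air replicate 5 of 52 weeks (0.0635). Crebbp gave 0.62 without TG air replicate 3 of 26 weeks (limma adjusted p = 0.0521). Chd4 and Zbtb7a kept theirs when any single array was left out, at 0.68 to 0.91 and 0.77 to 1.03. All 4 calls were lost with the row of wells on the plate as a random block, a fit whose share over all probe sets is not given here.

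Week, exposure and the place on plate 1 ran together in this series. Air mice of 52 weeks from WT (5), CD-1 (3) and KO (1) filled 9 of the 10 wells used in row D, and the other well held a TG styrene mouse of 26 weeks. Row E held the remaining 9 null air mice of 52 weeks and the 3 CD-1 styrene mice, and row F held 12 styrene mice. So every WT air array of 52 weeks stood in row D and every WT styrene array in row F, and the row and the exposure cannot be told apart within WT mice at this week.

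Since 8 of the 10 arrays in row D and 8 in rows E and F were those that chose the genes, levels by row are given for the other 72 arrays of plate 1. The medians of Srrm2 in them were 9.50, 9.41, 9.09 and 9.12 in rows A to D and 9.84, 9.51, 9.83 and 9.90 in rows E to H. Row D then held 2 arrays, at 9.01 and 9.23, and the 9 null air arrays of 52 weeks in row E ranged from 9.65 to 10.58. The 12 arrays of row C, all of null mice of 26 weeks, ranged from 8.77 to 9.60 for Srrm2, 6.08 to 7.34 for Crebbp, 4.94 to 5.65 for Chd4, 4.34 to 5.66 for Zbtb7a and 4.09 to 5.20 for Map1b. The arrays of row E ranged from 7.22 to 8.37 for Crebbp, 5.93 to 6.70 for Chd4, 5.80 to 6.69 for Zbtb7a and 4.71 to 5.54 for Map1b. So rows C and E did not overlap for Srrm2, Chd4 and Zbtb7a, and they overlapped for Crebbp and Map1b. How many of all probe sets did not overlap between these rows is not given here, so this is not read as particular to the genes. Rows C and E differ in week, as the other rows do in strain or week, so row and week cannot be told apart here and the ranges are a description.

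**Figure D2:**
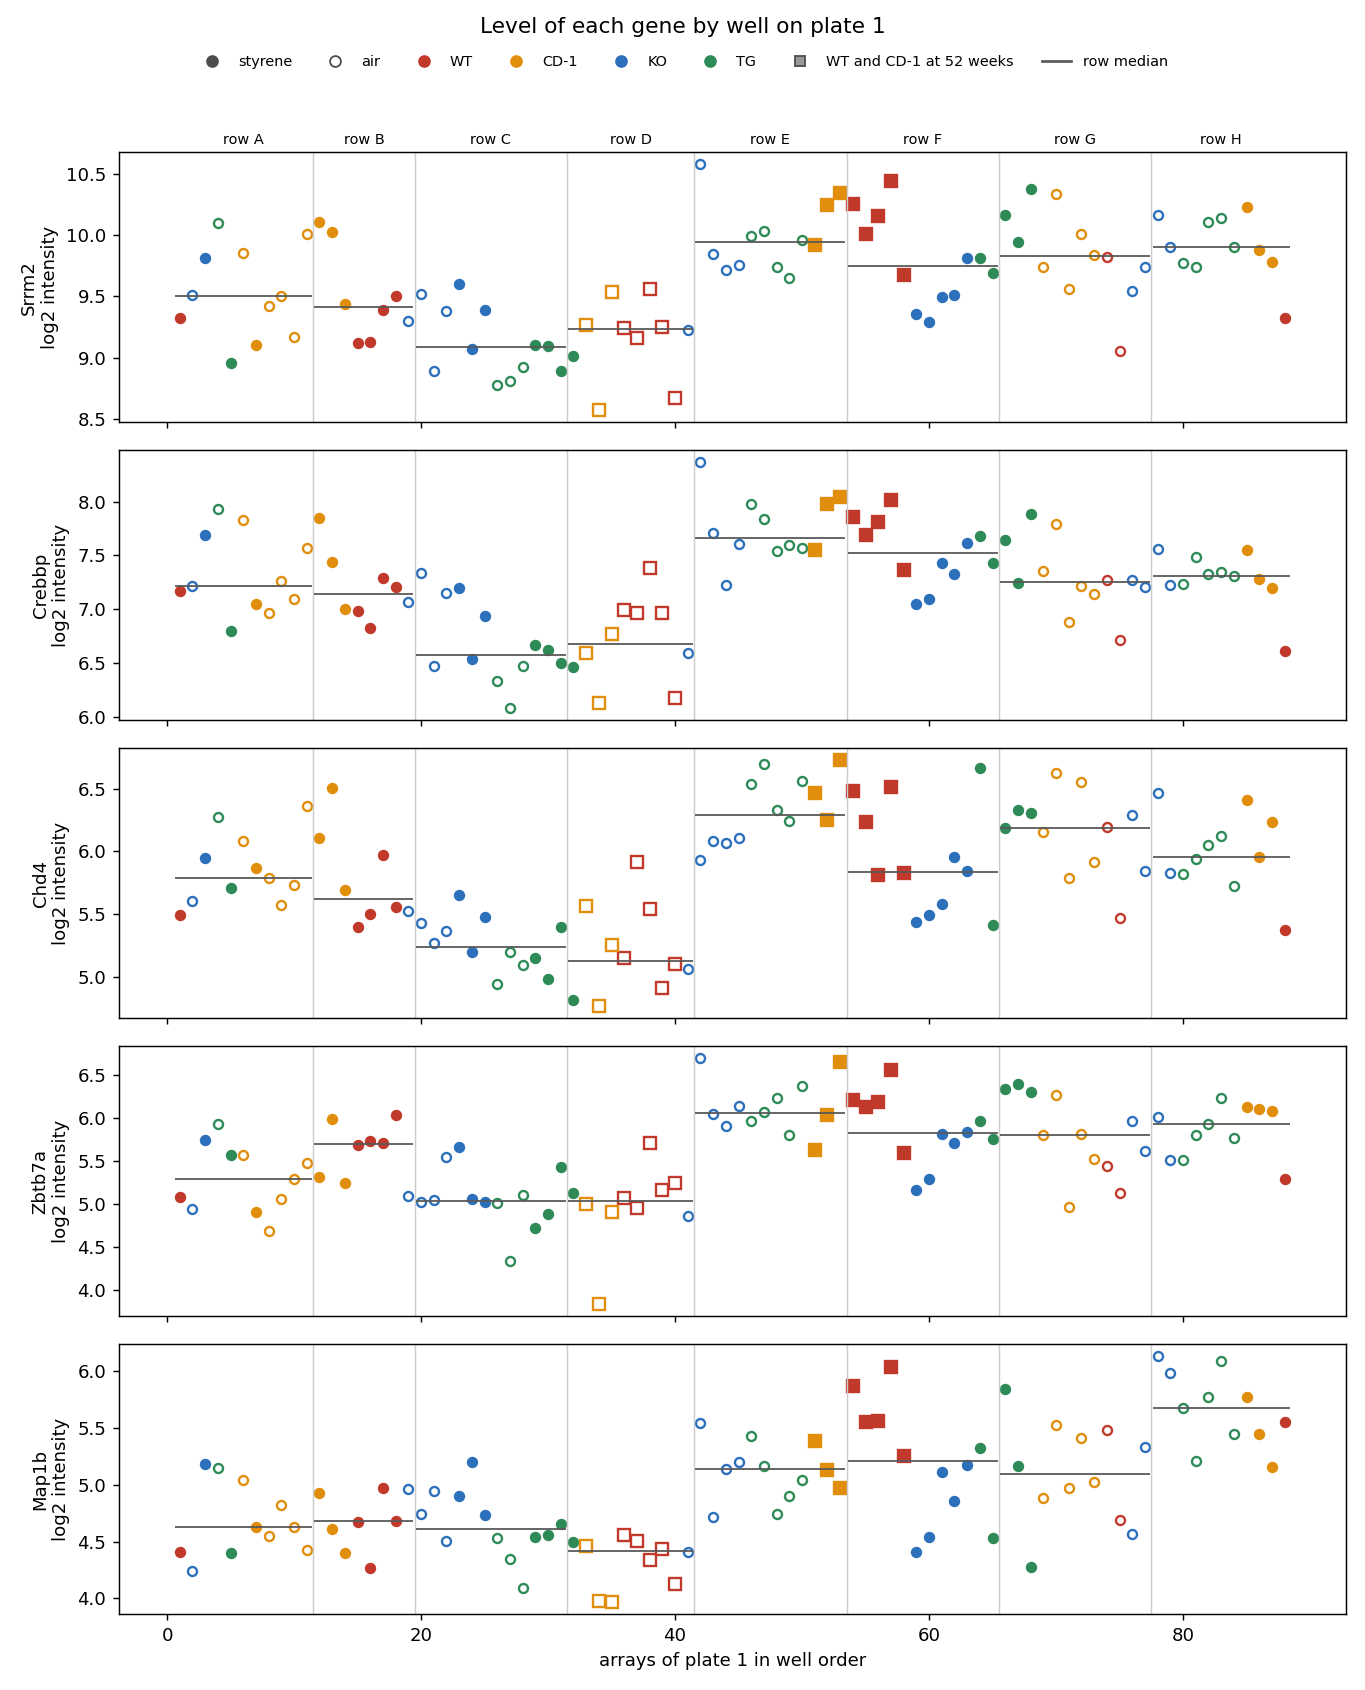
Level (log2 intensity) of the brightest probe set of each gene on the 88 arrays of plate 1, in well order, with rows A to H marked, a line at each row's median, filled points for styrene and open points for air, colours for strains and squares for WT and CD-1 mice of 52 weeks. The squares are the arrays that chose the genes, and among the circles the null air arrays of 52 weeks in row E (9.65 to 10.58 for Srrm2) lie above the null arrays of 26 weeks in row C (8.77 to 9.60).

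KO air mice of 52 weeks stood in both rows. Replicate 1, in row D, read 9.23 for Srrm2, 6.59 for Crebbp, 5.06 for Chd4, 4.85 for Zbtb7a and 4.40 for Map1b. The 4 others, in row E, read 9.71 to 10.58 for Srrm2, 7.22 to 8.37 for Crebbp, 5.93 to 6.11 for Chd4, 5.91 to 6.69 for Zbtb7a and 4.71 to 5.54 for Map1b. In all 5 genes the row D mouse was the lowest of its group, and it is 1 animal.

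By exposure within the plate's upper and lower rows, the medians of the same 72 arrays were as follows. Srrm2 had 9.22 in 18 styrene arrays and 9.38 in 15 air arrays of rows A to D, and 9.80 in 14 styrene arrays and 9.84 in 25 air arrays of rows E to H. Crebbp had 6.99 with styrene and 7.10 with air in rows A to D, and 7.38 with styrene and 7.34 with air in rows E to H. Chd4 had 5.53 with styrene and 5.52 with air in rows A to D, and 5.96 with styrene and 6.11 with air in rows E to H. In each of these genes both exposures had a higher median in the lower rows. Zbtb7a had 5.37 with styrene and 5.05 with air in rows A to D, and 5.90 with styrene and 5.91 with air in rows E to H. Map1b had 4.64 with styrene and 4.55 with air in rows A to D, and 5.16 with styrene and 5.21 with air in rows E to H. These rows hold different strains and weeks, so the medians are a description.

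With the row as a random block, a fit chosen after the data were seen, the WT differences at 52 weeks were 0.84, 0.64, 0.72, 0.78 and 1.18 for Srrm2, Crebbp, Chd4, Zbtb7a and Map1b. In CD-1 mice they were 0.64, 0.83, 1.01, 1.05 and 0.71. The difference of null air mice between 52 and 26 weeks became 0.51, 0.58, 0.62, 0.71 and 0.34, with 0 of 11 probe sets called by limma. The share of all probe sets called in that fit is not given here, so this 0 is not read as particular to these genes. With a term for each row of plate 1, the CD-1 differences were 0.20 (SE 0.40), 0.12 (SE 0.42), 0.35 (SE 0.41), 0.14 (SE 0.46) and 0.23 (SE 0.62), all within 1 SE of 0. The WT differences were 0.85 (SE 0.61) for Srrm2, 0.27 (SE 0.64) for Crebbp, 0.54 (SE 0.62) for Chd4, 0.31 (SE 0.70) for Zbtb7a and 1.62 (SE 0.94) for Map1b. Styrene and air differed in null mice there by 0.36, 0.26, 0.26, 0.32 and 0.87, opposite in sign to the fit without rows, with SEs of 0.64 to 0.98. Rows D and E were linked in this fit only by the KO air mice of 52 weeks, of which 1 stood in row D. No group had arrays both in rows A to E and in rows F to H of plate 1. The WT and null differences between styrene and air cross that gap. It was bridged only by groups with arrays on plate 2, on the side of rows F to H by WT styrene mice of 78 weeks, with 1 array in row H. The wide errors reflect these few links.

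The 56 other probe sets that were as high as the 5 genes in WT and CD-1 mice of 52 weeks were followed in the null mice as a description, since they were picked by their values. Their median difference between null air mice of 52 and 26 weeks was 0.58, against -0.01 over all probe sets, with 56 of 56 above 0. By limma 27 were called higher and 0 lower, beside 0.863% of all probe sets called. The share of all probe sets above 0 was not counted. Their median difference between styrene and air in null mice of 52 weeks was -0.17, with 10 of 56 above 0. Srrm2, Crebbp, Chd4 and Zbtb7a were thus not alone in this pattern. Of the 56, 66.1% are not listed in the annotation, against 32.2% of all probe sets tested.

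At 26 weeks none of the 11 probe sets was called by limma with styrene in CD-1, KO or TG mice, where 0.38%, 0% and 0% of all probe sets were. Srrm2 averaged 9.61 ± 0.44 in CD-1 styrene mice and 9.59 ± 0.34 in CD-1 air mice (SD, n = 5 each), with a fitted difference of -0.05. The fitted differences of Crebbp, Chd4, Zbtb7a and Map1b in CD-1 mice were -0.19, 0.13, 0.09 and -0.09. In KO mice the 5 genes differed by 0.15, 0.04, 0.13, 0.24 and 0.32, and in TG mice by -0.14, -0.09, -0.17, 0.05 and 0.00, from Srrm2 to Map1b. Srrm2 of the 4 TG air mice stood at 10.10 in replicate 1, a row A well, and at 8.77 to 8.92 in the 3 others, in row C.

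At 78 weeks, too, 0 of 11 probe sets were called by limma with styrene in any strain, where 0.0051% (WT), 0.105% (CD-1), 0% (KO) and 0.0128% (TG) of all probe sets were. In WT mice Srrm2 averaged 9.36 ± 0.14 with styrene (SD, n = 5) and 9.44 ± 0.54 with air (n = 2), and Chd4 averaged 5.61 ± 0.14 with styrene and 5.83 ± 0.51 with air. Most of these WT styrene arrays were on plate 2, and the fitted WT differences were -0.35, -0.47, -0.61, -0.35 and 0.11 from Srrm2 to Map1b. Zbtb7a there averaged 5.48 with styrene and 5.28 with air, so the plate 2 term turned its sign. That term rests on groups split between plates 1 and 2. They are CD-1 styrene mice of 26 weeks, CD-1 air mice of 52 weeks and WT styrene mice of 78 weeks. Each has 1 array on its smaller side, and the CD-1 air mice of 52 weeks were among those that chose the genes. The WT, KO and TG results of 78 weeks depend on this term. In CD-1 mice Zbtb7a averaged 6.10 ± 0.03 with styrene (SD, n = 3) and 5.67 ± 0.48 with air (n = 5), a difference of 0.43, and the other 4 genes differed by -0.01 to 0.30. All KO styrene mice of 78 weeks were on plate 2 and all KO air mice on plate 1. The same held for TG mice. There Srrm2 averaged 10.35 ± 0.13 with styrene (n = 3) and 9.93 ± 0.19 with air (n = 5), and the fitted difference was 0.07 with the plate 2 term, without which 4 of 11 probe sets were called, beside 39.4% of all probe sets.

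At 104 weeks dose coincided with the inferred plate in all WT and CD-1 arrays. The same held for all but 4 KO and TG arrays, whose plate the wells do not settle. So dose and plate cannot be told apart, and the shares called were 43.6% in WT, 58.6% in CD-1, 33.5% in KO and 0% in TG mice. A tumour label was carried by 10 mice, all of 104 weeks and not balanced between styrene and air. These were CD-1 mice of both exposures, WT and KO air mice and TG styrene mice. Srrm2, at 10.27 ± 0.42 with styrene (SD, n = 5) and 10.26 ± 0.20 with air (n = 4) in WT mice, was not called there, and Zbtb7a, at 6.74 ± 0.33 with styrene and 5.96 ± 0.27 with air, was called higher by limma (difference 0.79, adjusted p = 0.00562). Of the 11 probe sets, 4 were higher and 3 lower in WT, 2 higher and 5 lower in CD-1, 0 higher and 3 lower in KO, and none called in TG mice. Zbtb7a's other probe sets were called higher in WT (0.47 and 0.42) and in CD-1 mice (0.36 and 0.23), and Chd4 was called higher in WT mice (0.55, adjusted p = 0.0278). Srrm2 1437638_PM_at was lower by limma in WT (-1.07, adjusted p = 3.07e-05), CD-1 (-1.01, adjusted p = 4.08e-08) and KO mice (-0.83, adjusted p = 0.000676). Map1b 1421851_PM_at was called lower in the same 3, with styrene means of 2.77, 2.96 and 2.85 that lay below the filter level, so no size is given, while its brightest probe set was lower in CD-1 (-0.79) and KO mice (-0.82). Srrm2 was lower in CD-1 mice (-0.55, limma adjusted p = 0.00137). Of the 5 brightest probe sets, Chd4 and Zbtb7a had a larger styrene effect in WT than in TG mice by limma's test of that difference, which called 33.8% of all probe sets. Of all 11 probe sets, 5 were called in that test of WT against TG effects. The same test called 4 for CD-1 against TG and 2 for KO against TG effects, beside 41% and 21.5% of all probe sets. For WT against CD-1, WT against KO and CD-1 against KO effects it called 0 of the 11, beside 0.0842%, 0.0128% and 0.697% of all.

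**Figure D3:**
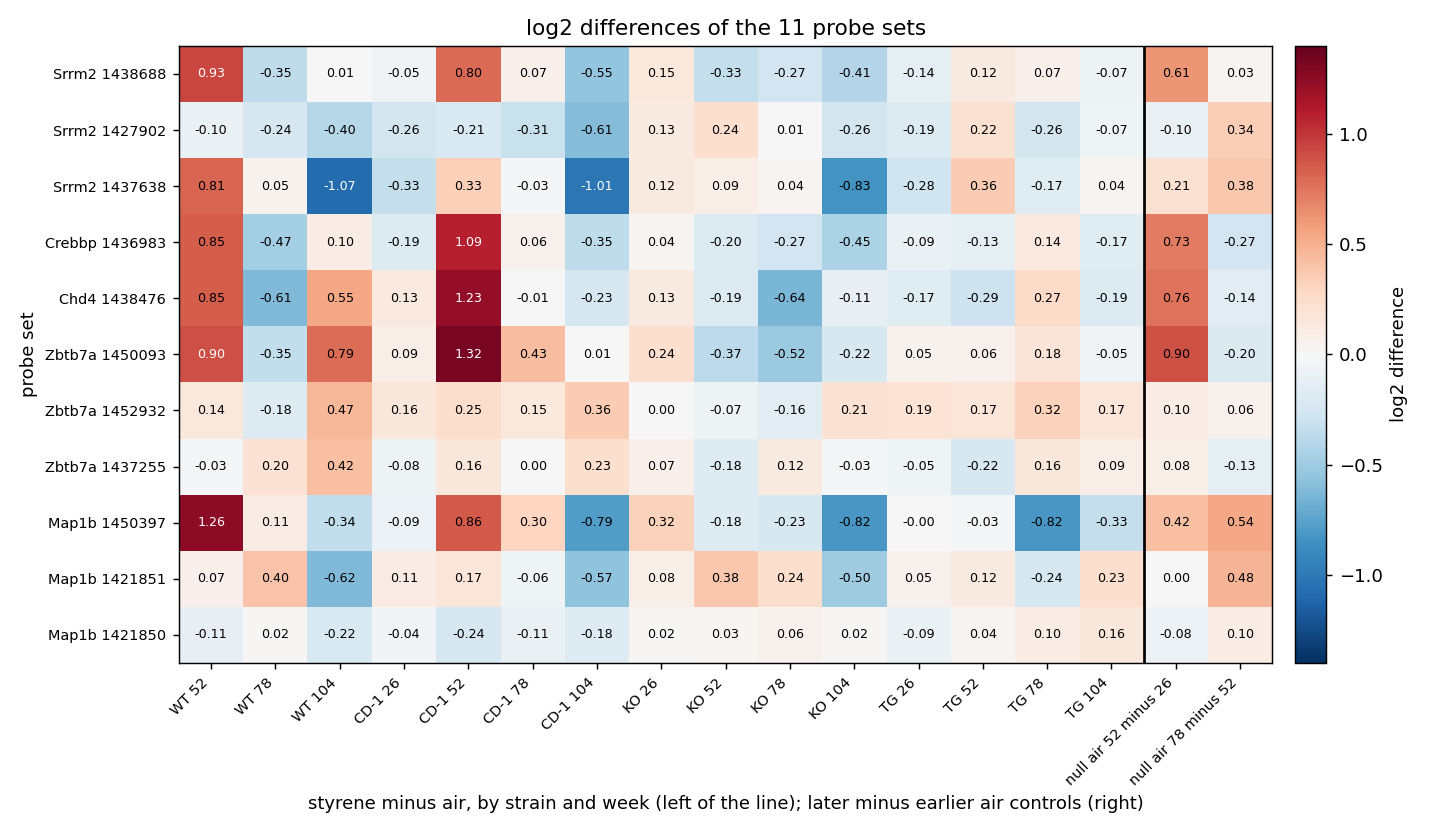
Differences in log2 level for the 11 probe sets, as numbers and colours, with styrene minus air for each strain and week left of the line and later minus earlier weeks of Cyp2f2-null air mice right of it. The columns of WT and CD-1 at 52 weeks, which chose the genes, reach 1.26 and 1.32, and the column of null air mice of 52 minus 26 weeks reaches 0.90 in Zbtb7a.

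Between 52 and 78 weeks other probe sets of the same genes rose in null air mice. Srrm2 1427902_PM_at averaged 7.62 ± 0.18 in 9 mice of 78 weeks and 7.28 ± 0.15 in 10 mice of 52 weeks, a difference of 0.34 (limma adjusted p = 0.00479). Srrm2 1437638_PM_at differed by 0.38 (adjusted p = 0.0352), Map1b 1421851_PM_at by 0.48 (adjusted p = 0.000714, with the mean of 52 weeks at the filter level) and Map1b by 0.54 (5.57 ± 0.50 at 78 weeks and 5.03 ± 0.35 at 52 weeks, adjusted p = 0.0373). Srrm2, Crebbp, Chd4 and Zbtb7a differed by 0.03, -0.27, -0.14 and -0.20 and were not called. The 4 calls among 11 stand beside 35% of all probe sets called in that comparison, a share close to that of the whole array. Between CD-1 and Cyp2f2-null air mice of 26 and 78 weeks (n = 10 and 18), 1 of 11 was called, Srrm2 1427902_PM_at, higher by 0.39 in CD-1 mice (adjusted p = 0.000233), beside 12.5% of all probe sets, and Chd4 was 0.35 higher (adjusted p = 0.0505).

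Arrays of the same group differed from each other in the same way for several of the genes. Each array's level was set against its group mean in 85 arrays of up to 78 weeks, without the 17 arrays of WT and CD-1 mice at 52 weeks. Srrm2 and Crebbp had a Pearson r of 0.88 and a Spearman rho of 0.84 (permutation adjusted p = 3.8e-05 over 19 pairs), which was 0.83 without the 2 arrays farthest out and 0.88 within plate 1. Chd4 and Zbtb7a had an r of 0.74 and a rho of 0.72, and the 4 pairs that join Srrm2 or Crebbp with Chd4 or Zbtb7a had r of 0.64 to 0.65 and rho of 0.51 to 0.61. Map1b went with Srrm2 (r = 0.41, rho = 0.47) and Crebbp (0.37, 0.40), but not past the threshold with Chd4 (0.18, permutation adjusted p = 0.208) or Zbtb7a (0.15, adjusted p = 0.298). Within the 71 arrays of plate 1 these last pairs did pass, with r of 0.42 (permutation adjusted p = 0.00561) for Chd4 and 0.39 (adjusted p = 0.0039) for Zbtb7a. Of the 19 pairs 13 passed, all with positive r. Over the 85 arrays, 117 probe sets had an r above 0.7 with Srrm2 and 97 with Crebbp. For Chd4, Zbtb7a and Map1b these numbers were 37, 45 and 18. How many pairs pass among all probe sets was not counted, so the 13 are not read as particular to these genes.

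Some pairs of probe sets of the same gene had lower correlations. Srrm2 and its own 1427902_PM_at had an r of 0.16 (rho 0.20, permutation adjusted p = 0.211), whereas Srrm2 and 1437638_PM_at had 0.56. Zbtb7a and its 1452932_PM_at had 0.20 (adjusted p = 0.169), and Map1b and its 1421851_PM_at had 0.43. The test of a difference between these correlations was not run.

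**Figure D4:**
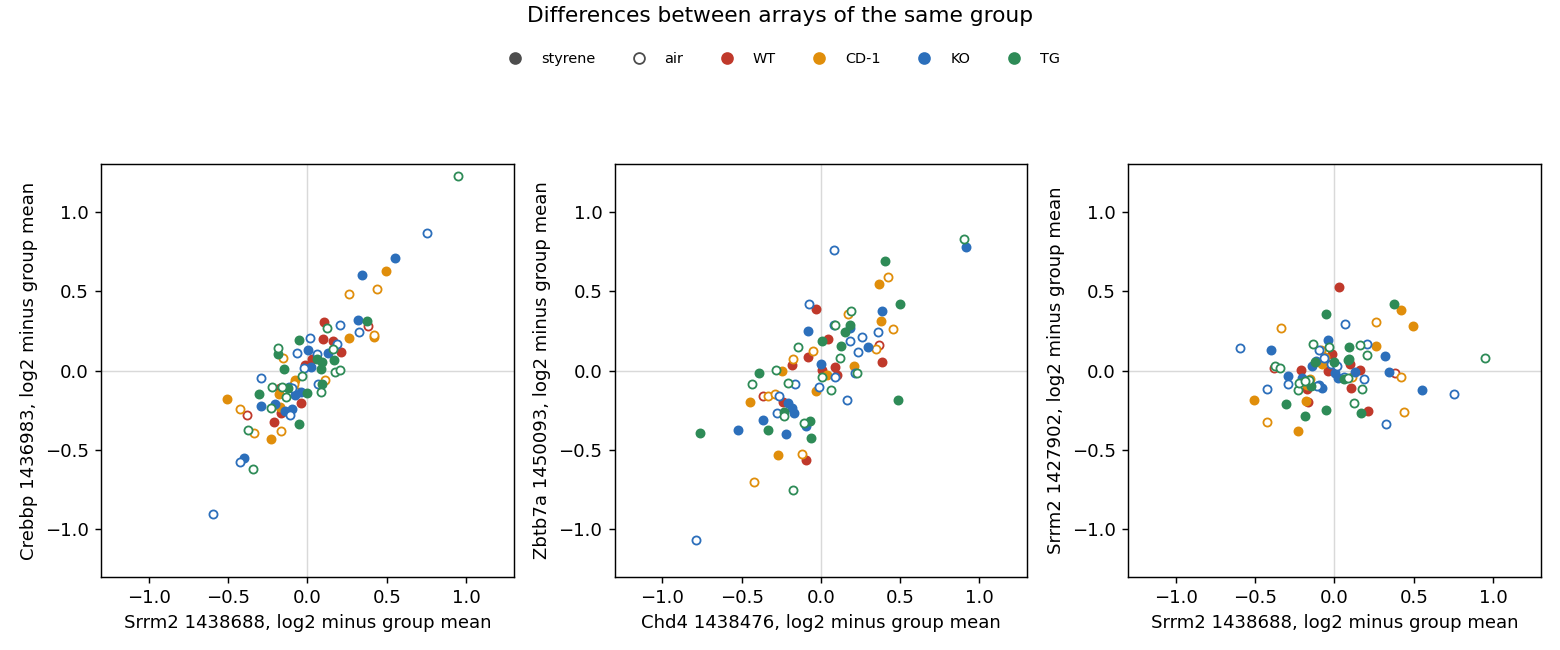
Deviation of each of 85 arrays from its group mean (log2), for Srrm2 and Crebbp, for Chd4 and Zbtb7a, and for 2 probe sets of Srrm2, with filled points for styrene, open points for air and colours for strains. The first panel forms a narrow band (r = 0.88), the middle a wider one (r = 0.74), and the Srrm2 probe sets form none (r = 0.16).

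Measures taken over the whole array moved with some of the genes across the same 85 arrays. The array median went with Srrm2 (r = 0.31, rho = 0.36, permutation adjusted p = 0.02) and Map1b (0.42, 0.45, adjusted p = 0.000627), but its relations to Crebbp (0.24, adjusted p = 0.0759), Chd4 (-0.16, adjusted p = 0.253) and Zbtb7a (-0.15, adjusted p = 0.316) did not pass. The main axis of differences between arrays of a group, which held 22.8% of their variance, went with Map1b (r = 0.56, rho = 0.50, adjusted p = 0.000132) and against Chd4 (-0.45, -0.37, adjusted p = 0.000627) and Zbtb7a (-0.44, -0.37, adjusted p = 0.000797). It went with neither Srrm2 (0.02, adjusted p = 0.917) nor Crebbp (-0.05, adjusted p = 0.696). Of 33 such relations 17 passed, and 10 passed within plate 1, where Chd4 and the axis had r of -0.27 (permutation adjusted p = 0.091). The share of all probe sets that pass such a test was not counted, so these counts are not read as particular to the genes. At 52 weeks the array median was 4.15 to 4.19 in WT styrene arrays and 4.11 to 4.17 in WT air arrays. The mean level of unlisted minus 1-gene probe sets went with Srrm2 (r = 0.35, rho = 0.42, permutation adjusted p = 0.000627) and not past the threshold with Crebbp (0.18, adjusted p = 0.0759). With this last measure as a covariate, the WT differences of 52 weeks were 0.62 for Srrm2 and 1.01 for Map1b, and those of the other 3 genes moved by less than the spread between replicates.

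The genes most like each of the 5 over the same 85 arrays were named by Pearson r of the brightest probe sets. Srrm2 was most like Crebbp (0.88), Srpk2 (0.76), a kinase of SR splicing factors, and Mtdh (0.75). Crebbp was most like Srrm2, Pdap1 (0.78) and Vgll4 (0.77), a cofactor of TEAD transcription factors. Chd4 was most like Pdap1 (0.82), the nuclear pore gene Nup214 (0.74) and Zbtb7a (0.74), and Zbtb7a was most like Pdap1 (0.80), Vgll4 (0.77) and the phosphatase gene Dusp7 (0.75). Map1b was most like the ubiquitin ligase gene Pja2 (0.74), Dnajc3 (0.70) and the proteasome gene Psmd1 (0.68). Likeness did not carry over to the comparisons in every case: between null air mice of 52 and 26 weeks Nup214 differed by 0.49 (limma adjusted p = 0.00983) and Dusp7 by 0.52 (adjusted p = 0.0196), whereas Pdap1 differed by 0.45 (adjusted p = 0.0592), Srpk2 by 0.37 (adjusted p = 0.193) and Vgll4 by 0.13. Pdap1 was 0.87 higher with styrene in WT and 1.05 higher in CD-1 mice at 52 weeks and differed by -0.36 in null mice.

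Partners of the 5 proteins were taken as lists, without the 5 genes. None of the measured members of NuRD (14 of 14 listed genes), of CBP and p300 coactivators and partners (17 of 21), of speckle and splicing factors (39 of 42), of large chromatin regulators (28 of 40), of POK factors and their corepressors (15 of 17) or of microtubule-associated proteins and tubulins (20 of 21) was called by limma in null mice, either with styrene at 52 weeks or between air mice of 52 and 26 weeks, where 0% and 0.863% of all probe sets were. The list medians between air mice of 52 and 26 weeks were -0.03, -0.04, -0.03, -0.02, -0.01 and -0.04, against -0.01 over all probe sets. With styrene at 52 weeks the null medians were 0.04, 0.10, 0.06, 0.16, 0.04 and 0.06. In WT mice at 52 weeks the list medians were 0.01, -0.06, 0.01, 0.13, 0.00 and -0.02, and in CD-1 mice -0.04, -0.12, -0.03, -0.10, 0.03 and 0.00. In these WT mice limma called 1 large chromatin regulator higher, Arid1a, and 1 microtubule gene higher, Map4, beside 1.39% of all probe sets. None was called in CD-1 mice, where 0.13% of all probe sets were.

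Mta1, another NuRD subunit, differed between styrene and air by 0.35 in WT, 0.27 in CD-1 and 0.11 in null mice at 52 weeks (limma adjusted p = 0.536 in null mice), and Gatad2b, a NuRD scaffold, differed by 0.26 in null mice (adjusted p = 0.0844). Creb1, the factor that CBP was named after, differed by -0.22 in WT, -0.35 in CD-1 and 0.44 in null mice (adjusted p = 0.259). Luc7l2, a splicing factor, had 0.55 in null mice (adjusted p = 0.0924) and Bptf, a nucleosome remodelling subunit, 0.36 (adjusted p = 0.0924). Zbtb20, a relative of Zbtb7a, had 0.54 (adjusted p = 0.0636), and Map4, a microtubule-associated protein of many tissues, 0.41 in null mice (adjusted p = 0.0884) and 0.61 in WT mice. Between air mice of 78 and 52 weeks, where 35% of all probe sets were called, 20 of 39 splicing genes were higher and 6 lower, among them Luc7l2 by 1.08 (limma adjusted p = 2.12e-07) and Rbm39 by 0.57. Of the 17 coactivators 7 were higher and 0 lower, Creb1 by 0.78 (adjusted p = 0.000776), and of the 28 large chromatin regulators 13 were higher and 1 lower. Of the other lists NuRD had 2 higher and 3 lower, POK factors and corepressors 1 higher and 3 lower, and microtubule genes 3 higher and 5 lower.

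Markers of other cells were read beside the genes, since in whole lung fewer cells of a type and less RNA per cell cannot be told apart. Neuron and nerve markers, 7 of 13 measured, stand nearest to Map1b. Their mean level was 5.07 to 5.24 in WT styrene arrays and 5.07 to 5.28 in WT air arrays of 52 weeks, and 4.77 to 4.94 in CD-1 styrene and 4.92 to 5.23 in CD-1 air arrays. They were not higher in the groups where Map1b was higher. Heart muscle markers averaged 7.36 to 9.32 in WT styrene and 6.82 to 7.54 in WT air arrays, with 7 of 7 genes above 0, a median difference of 0.90 and none called by limma, and their median difference in CD-1 mice was -0.03. Club cell markers averaged 11.09 to 11.87 in WT styrene and 11.87 to 12.15 in WT air arrays, with 0 of 7 genes above 0, a median difference of -0.22 and 1, Cckar, called lower by limma. In CD-1 mice they averaged 10.27 to 11.64 with styrene and 11.10 to 11.74 with air, with 2 of 7 above 0 and none called. Macrophage markers had a median difference of -0.20 in WT mice (0 of 7 above 0) and 0.21 in CD-1 mice (6 of 7 above 0). In null air mice between 52 and 26 weeks macrophage markers had a median of 0.34, with 7 of 7 above 0 and none called, in the comparison where 4 of the 5 genes rose. There heart muscle markers had 7 of 7 above 0 (median 0.17), while fibroblast and smooth muscle (0 of 9 above 0, -0.18), club cell (0 of 7, -0.08) and erythroid markers (0 of 3, -0.67) all lay below 0, with none called. The part of these cells in the differences was not tested.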

How the data were processed

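RNA of whole lung from 150 of the 154 mice the series states was read on Affymetrix HT MG-430 PM arrays. The authors deposited log2 values made with RMA (background correction, normalisation and summary per probe set), and Partek is also named, per the submitters' processing notes. The notes used here give no version and no genome build, nor do they say if RMA was run over all plates at once. RMA shares 1 intensity distribution among the arrays it was run on, which shifts a probe set relative to the rest, and compresses differences of dim ones. Arrays have no read depth, so their number limits precision, and no column of the table went unused.

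Groups came from each sample's labels and wells from the array names. Plates 1 to 4 were inferred from those wells, since no label names a plate. Probe sets were named by the platform annotation (28898 with 1 gene, 551 with several, left out, and 15588 not listed), with 28689 symbols updated through Entrez numbers. Members and lists were chosen with earlier results of these data known. Of 45037 probe sets 39185 lay above the 30th percentile of an array in at least 3 arrays. The 31 group means and a plate 2 term were fitted with limma 3.58.1 in R 4.3.3, and p-values were adjusted by Benjamini and Hochberg over these 39185 with a threshold of 0.05. The SE is that of this fit, and every adjusted p of a difference is limma's. Group means and SDs are of the arrays themselves, without the plate term. Correlations used 100000 permutations (SciPy 1.17.1), adjusted over 19 pairs and over 33 relations to array-wide measures. Named genes were the 3 most correlated genes of each member and up to 4 genes of each list with the smallest p in null mice at 52 weeks. The scripts were tested on simulated data. A planned measure of RNA quality, 3′ minus 5′ control probe sets, was not used, since the table holds 0 such control probe sets.

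Same-numbered samples were separate animals. Over 15 comparisons, 1 had all its pairs' deviations correlated above 0.1, so the replicate number does not pair the mice. The 2 most alike arrays correlated at 0.996.

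Alternatives were other filters, 1 probe set or the mean per gene, other normalisation, covariates, plate terms, replicate numbers as a block, subsets of arrays and each array left out. The well row as a random or fixed term was added after the data were seen.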

Additional observations from a re-analysis of the deposited data

Results flagged for a closer look

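The brightest probe sets of the 5 genes were read in each of 27 groups of 4 to 10 arrays, which gave 135 sets of values. In 8 of them 1 array stood apart from the rest, where chance gives about 1 in 20 sets. The high ones were Srrm2 in TG air replicate 1 of 26 weeks (10.10, the others 8.77 to 8.92), Crebbp in KO styrene replicate 5 of 78 weeks (8.14, the others 7.18 to 7.32), Chd4 in WT air replicate 4 of 104 weeks (6.59, the others 5.95 to 6.00), Chd4 in WT styrene replicate 4 of 26 weeks (5.97, the others 5.40 to 5.56) and Zbtb7a in KO air replicate 5 of 26 weeks (5.55, the others 4.94 to 5.09). The low ones were Srrm2 in KO air replicate 5 of 104 weeks (9.77, the others 10.27 to 10.56), Chd4 in KO air replicate 1 of 52 weeks (5.06, the others 5.93 to 6.11) and Chd4 in WT styrene replicate 1 of 78 weeks (5.37, the others 5.61 to 5.71). The KO air mouse of 52 weeks stood in row D and its group's other mice in row E, and the WT styrene mouse of 78 weeks was on plate 1 and its group's other mice on plate 2.

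The styrene effect at 104 weeks differed between WT and TG mice by 0.74 for Chd4 (limma adjusted p = 0.0346) and by 0.84 for Zbtb7a (adjusted p = 0.0376), in a comparison where 33.8% of all probe sets were called and dose and plate cannot be told apart.

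Of 105 combinations of gene, week and pair of strains, 5 had every styrene array on opposite sides of its air mean. How often this occurs over all probe sets was not counted. Srrm2 at 52 weeks differed by 0.93 in WT and -0.33 in KO mice, 1.26 apart, and by 0.71 in CD-1 and -0.33 in KO mice, 1.04 apart. Zbtb7a at 52 weeks differed by 0.90 in WT and -0.37 in KO mice, 1.27 apart, and by 1.15 in CD-1 and -0.37 in KO mice, 1.52 apart. Chd4 at 78 weeks differed by -0.22 in WT and 0.76 in TG mice, -0.98 apart, where all TG styrene arrays were on plate 2. These are differences of plain means, and each was not tested. Those of 52 weeks include the comparisons that chose the genes, so their positive side was set in advance.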

How the results depend on the processing

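The difference of each of the 5 genes in WT and CD-1 mice at 52 weeks kept its sign under every alternative run. That sign chose the genes in these same arrays, so the values below are a description and no support. Leaving out 1 array gave 0.80 to 1.04, 0.67 to 0.97, 0.75 to 1.00, 0.80 to 1.04 and 1.16 to 1.36 in WT mice, from Srrm2 to Map1b, and 0.49 to 1.05, 0.84 to 1.36, 1.05 to 1.35, 0.97 to 1.56 and 0.74 to 1.02 in CD-1 mice. Averaging the probe sets of a gene gave 0.55 for Srrm2, 0.34 for Zbtb7a and 0.41 for Map1b in WT mice, and a covariate for unlisted minus listed probe sets gave 0.62 for Srrm2 and 1.01 for Map1b.

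In null mice at 52 weeks, averaging turned the styrene differences of Srrm2 to 0.12 and Map1b to 0.059, the random row block turned Map1b to 0.0095, and row terms turned the 5 genes to 0.36, 0.26, 0.26, 0.32 and 0.87, all within 1 SE of 0. Their count of calls, 0, became 1 with the main axis as a covariate, which is taken within groups and so moves errors more than differences. For null air mice of 52 against 26 weeks the 4 calls became 0 with either row fit, in which Zbtb7a turned to -0.057 with row terms, and ranged from 2 to 4 with 1 array left out (2 without TG air replicate 3 of 26 weeks). For null air mice of 78 against 52 weeks the 4 calls became 1 with 1 probe set per gene or their mean, 2 with quantile normalisation or the unlisted covariate, 0 with either row fit, and 2 to 4 with 1 array left out. There Srrm2 1437638_PM_at turned to -0.0070 with the unlisted covariate and Map1b 1421851_PM_at to -0.35 with row terms. Between CD-1 and null air mice 1 call became 2 with the stricter filter, the mean of probe sets, median centring, quantile normalisation, or without plate 2 or tumour-labelled mice, 3 with either covariate, 0 with row terms, and 1 to 2 with 1 array left out.

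At 104 weeks the 7 calls of WT mice became 2 with 1 probe set per gene, 4 with their mean, the unlisted covariate or the random row block, 0 or 1 with a plate 4 term, and 4 to 7 with 1 array left out (4 without WT air replicate 2). The 7 of CD-1 mice became 2, 3, 1 with the unlisted covariate, and 0 or 1 with a plate 4 term. The 3 of KO mice became 1 with 1 probe set per gene, 0 with the unlisted covariate or a plate 4 term, and 2 to 5 with 1 array left out (5 without KO styrene replicate 5). With the unlisted covariate Srrm2 1427902_PM_at turned to 0.048 in WT and Srrm2 to 0.075 in CD-1 mice. For TG mice of 78 weeks 0 calls became 4 without the plate term and 2 with the main axis. Of the relations to array-wide measures 10 in place of 17 passed on plate 1. Where a result changed, the cause was not tested, apart from fewer probe sets or arrays in the fit. Shares of all probe sets called are not given in this section, so no changed count is read as particular to these genes.

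With the replicate number as a block, which does not pair these mice, the 4 calls of null air mice of 52 against 26 weeks were again 4 (Srrm2 0.61) and null mice of 52 weeks again had 0 calls. The block lost Zbtb7a 1437255_PM_at in CD-1 mice of 104 weeks (0.21, limma adjusted p = 0.0677).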
